A study of Mus musculus with 20 samples.

Results

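The blood-brain barrier is carried by the endothelial cells of brain capillaries, and its named junction proteins and transporters were read here from deposited gene-level values of whole mouse brain. The set held 10 genes, Cldn5, Ocln, Slc2a1, Mfsd2a, Abcb1a, Abcg2, Slco1c1, Slc38a5, Slc7a5 and Slc7a1, each taken as the row of the deposited table with that gene symbol, and all 10 were found among its 45700 genes. The samples were brains of “Taiwanese” SMA mice, a severe model of spinal muscular atrophy that lacks mouse Smn and carries a human SMN2 transgene (Smn-/-; SMN2tg/0), and of control littermates that the study's methods describe as heterozygous with the same transgene (Smn-/+; SMN2tg/0). Both genotypes were congenic FVB mice, and the labels name no drug treatment. Brains were taken on postnatal day 5, early in the disease (the early stage, 2 replicates per genotype), and on postnatal day 7, the late-symptomatic stage (3 replicates). For each replicate there was a library of total RNA, pooled from all fractions of a sucrose gradient, and a library of polysomal RNA, pooled from the fractions that hold messages loaded with several ribosomes, which made 20 libraries. Each was made from a mouse brain, but the labels do not say whether the total and polysomal libraries of a number came from the same one. Levels are in FPKM, fragments per length of transcript and per sequenced fragments of the library, so levels of different genes are compared per length. The deposited values hold no counts, so no counting interval is given, and read totals listed with the study were not used here.

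Brain capillary endothelium is sealed by tight junctions and has few vesicles, so that solutes cross it through transporters. Claudin-5 and occludin span the junction between neighboring cells, ATP-driven pumps return drugs and other lipophilic molecules to the blood, and carriers of the solute carrier family let glucose, amino acids, thyroid hormone and lipids through. The barrier is induced in the embryo by Wnt and Norrin signals from neural tissue and matures after birth with the help of pericytes and astrocytes. Several of these genes are not restricted to endothelium, since astrocytes, choroid plexus or neurons also use some of the carriers.

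Slc7a5 averaged 35.4 FPKM over the 18 libraries where it is listed above 0. Averaged over the 20 libraries, Cldn5 stood at 33.2 FPKM, Slco1c1 at 18.5, Slc7a1 at 17.5, Mfsd2a at 13.6, Slc2a1 at 12.2, Abcg2 at 11.3, Slc38a5 at 7.67, Ocln at 4.33 and Abcb1a at 1.39 FPKM. Counted with its 2 libraries at 0, Slc7a5 averaged 31.9 FPKM and came after Cldn5. Neighbors in this order overlapped in their range over libraries, except that every library had more Ocln (2.88 to 7.89 FPKM) than any had Abcb1a (0.85 to 2.36 FPKM). All 10 genes averaged at least 1 FPKM and so entered the tests with 15247 genes in all. Stmn2, the most abundant of 16 neuron markers, averaged 1176 FPKM. Egfl7, the most abundant of 21 tested general endothelial markers, averaged 26.9 FPKM.

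The disrupted gene, Smn1 (ENSMUSG00000021645.14, at 100124852 to 100137690 of chromosome 13), ranged from 8.61 to 11 FPKM in the day 5 control libraries and from 9.34 to 10.09 FPKM in the day 5 SMA libraries. On day 7 it ranged from 11.94 to 16.7 FPKM in control and from 11.94 to 17.49 FPKM in SMA libraries. The genotypes overlapped in every stage and fraction, and a level read over the whole gene does not check the genotype labels. Xist and Y-linked genes gave the same sex for the total and polysomal libraries of each replicate number. By them both day 5 controls were male, day 5 SMA replicate 1 was female and replicate 2 male, and day 7 had 2 females and 1 male among controls and 1 female and 2 males among SMA replicates.

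**Figure D1:**
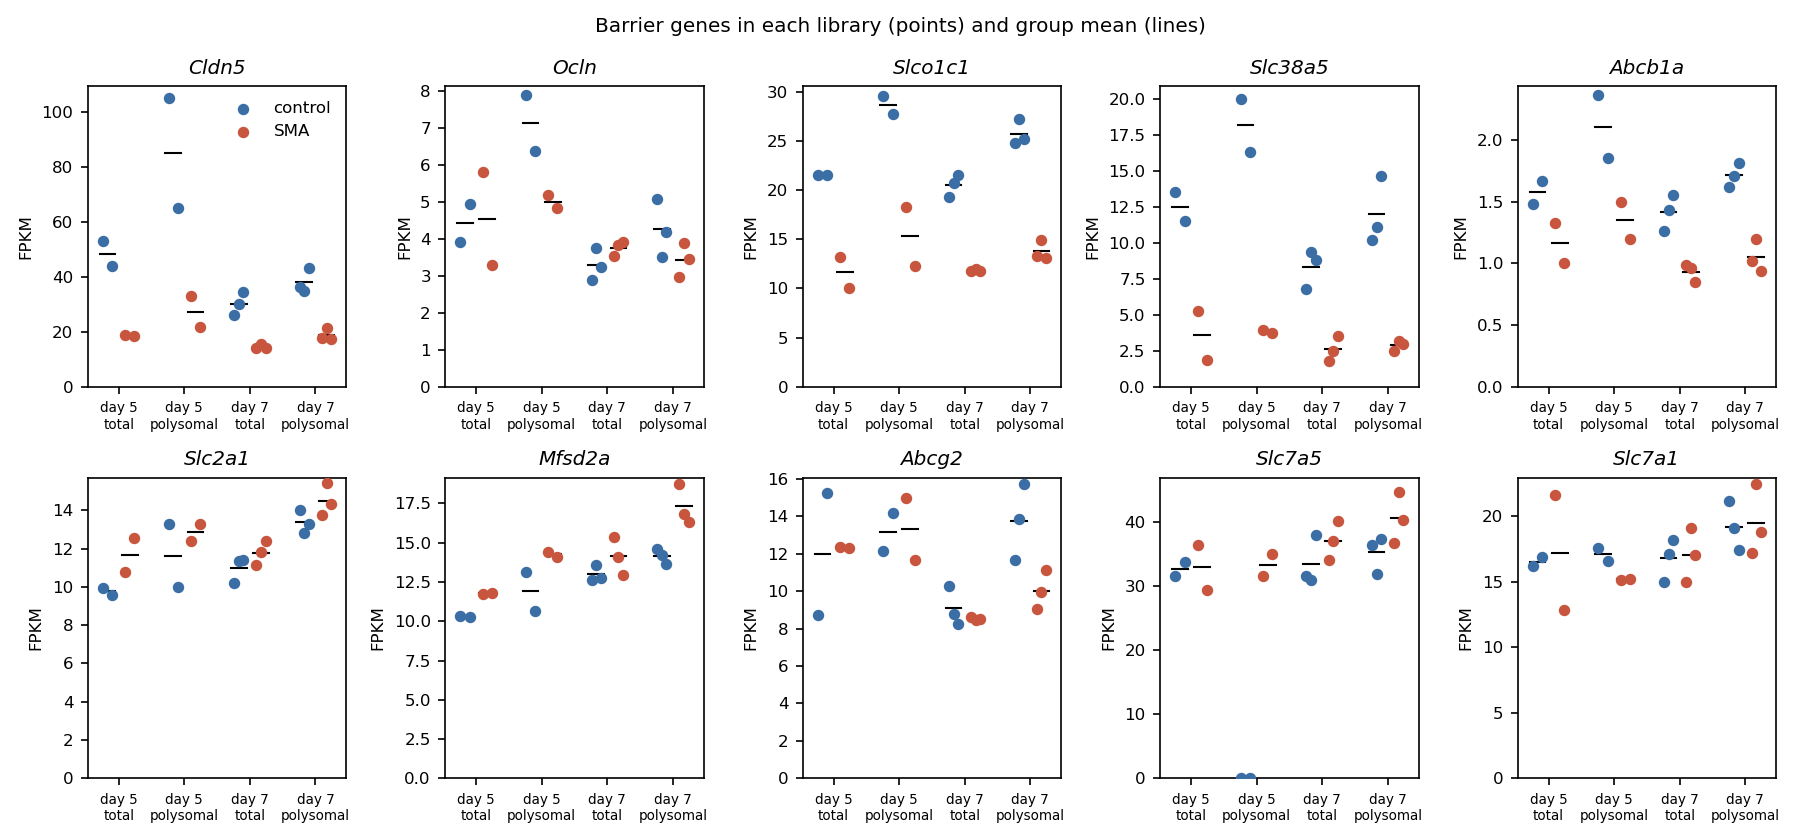
FPKM (vertical axes, starting at 0) of each of the 10 barrier genes in every library, by stage and fraction, with control libraries in blue, SMA libraries in red and group means as black lines. The genotypes separate in all 4 classes for Cldn5, Slco1c1, Slc38a5 and Abcb1a, and the early-symptomatic control polysomal libraries of Slc7a5 are listed at 0. Ocln, Mfsd2a and Slc7a1 also separate in day 5 polysomal RNA, without a call.

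The promoter windows of a pair of genes that were lower in SMA brains in all 4 comparisons, Cldn5 and Slco1c1, and of Mfsd2a, which was not lower in any, are shown with the short motifs found in them in capitals. Each window is the 250 bases before the annotated gene start, 5′ to 3′ on the gene's strand, from RefSeq on GRCm38.p6. The windows lie at chr16:18776597-18776846 on the plus strand for Cldn5, at chr6:141524104-141524353 on the plus strand for Slco1c1 and at chr4:122961189-122961438 on the minus strand for Mfsd2a.
Cldn5: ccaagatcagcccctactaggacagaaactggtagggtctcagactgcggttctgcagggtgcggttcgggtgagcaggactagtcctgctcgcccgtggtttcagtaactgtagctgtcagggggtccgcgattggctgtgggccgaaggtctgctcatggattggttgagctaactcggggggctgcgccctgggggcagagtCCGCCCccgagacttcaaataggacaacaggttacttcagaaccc
Slco1c1: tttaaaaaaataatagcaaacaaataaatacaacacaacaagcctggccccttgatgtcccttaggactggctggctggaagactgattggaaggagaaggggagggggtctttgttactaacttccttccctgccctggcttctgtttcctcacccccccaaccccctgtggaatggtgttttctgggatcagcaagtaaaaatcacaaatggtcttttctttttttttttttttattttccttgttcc
Mfsd2a: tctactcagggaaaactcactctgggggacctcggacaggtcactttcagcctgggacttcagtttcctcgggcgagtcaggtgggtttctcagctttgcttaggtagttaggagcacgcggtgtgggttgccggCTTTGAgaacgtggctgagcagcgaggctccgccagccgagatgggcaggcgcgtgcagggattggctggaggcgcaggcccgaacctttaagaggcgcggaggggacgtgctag
The letters searched on both strands were CCGGAA (core of ETS factor sites), CTTTGA (core of TCF/LEF sites), GTAAACA (forkhead sites) and GGGCGG (GC box). The Cldn5 window holds 1 GC box, read on the opposite strand as CCGCCC, the Mfsd2a window holds 1 CTTTGA, and the Slco1c1 window holds none of the 4. Of 32851 promoter windows of this length, 12% hold CCGGAA, 13.8% CTTTGA, 3.17% GTAAACA and 32.7% GGGCGG, so a match or its lack in these windows is a description only. Promoter entries were found for 9 of the 10 genes. For Cldn5 and Slc38a5 the study also designed primer pairs, shown next to place them on the transcripts.
Cldn5 forward: gttgaccatcactagccggg
Cldn5 reverse: aatctgagcgttccacccac
Slc38a5 forward: tgagaggaggtatgggaggc
Slc38a5 reverse: tcttcccttttagcgccagg
The Cldn5 pair spans 114 bases, positions 956 to 1069 of the 1416 bases of its only Gencode M21 transcript. The Slc38a5 pair spans 105 bases and matches 3 of its 4 transcripts. The values below are gene-level FPKM and not measurements of these stretches.

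Cldn5, the main claudin of brain endothelial tight junctions, was lower in SMA brains at both stages and in both fractions (ENSMUSG00000041378.1, chromosome 16, 18776847 to 18778260, a short gene whose transcript has 1416 bases). Early-symptomatic total RNA gave 52.9 and 43.8 FPKM in controls against 18.9 and 18.5 FPKM in SMA mice, and late-symptomatic total RNA gave 25.96, 30.1 and 34.5 FPKM against 14.1, 15.5 and 14.2 FPKM. In polysomal RNA the early control values of 104.9 and 65.2 FPKM stood against 32.96 and 21.8 FPKM in SMA mice, and the late values were 36.5, 34.8 and 43.1 FPKM against 17.8, 21.5 and 17.2 FPKM. All SMA libraries lay below all control libraries of their class, and the early control polysomal libraries were the highest and the furthest apart. With so few libraries per genotype, above all on day 5, genotypes can separate without a difference between them. The share of all genes that separate was not counted, so separation is a description here and below. In total RNA the log2 change was −1.36 on day 5 (SE 0.12, adjusted p = 0.318) and −1.03 on day 7 (SE 0.113, adjusted p = 0.101; limma, Benjamini-Hochberg). In polysomal RNA it was −1.62 on day 5 (SE 0.355, adjusted p = 0.385) and −1.01 on day 7 (SE 0.122, adjusted p = 0.153; limma). On day 7 SMA brains thus held 0.488 of the control level in total and 0.496 in polysomal RNA, on the scale of log2(FPKM + 0.1) used for every change and test. Throughout, a gene is called at an unadjusted p under 0.05, the threshold of the study, and none of these 4 changes of Cldn5 passed after adjustment over all genes. The day 5 polysomal call was lost without control replicate 1 (log2 change −1.28) or SMA replicate 2 (−1.32). In whole brain RNA, fewer endothelial cells and less of a message per endothelial cell cannot be told apart.

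Ocln, the other transmembrane protein of the tight junction in the set, was not called in any of the 4 genotype comparisons (ENSMUSG00000021638.10, chromosome 13, 100496507 to 100552718, 358817 bases from Smn1). Total RNA gave 3.91 and 4.94 FPKM in controls against 5.81 and 3.29 FPKM in SMA mice on day 5, and 2.88, 3.76 and 3.24 FPKM against 3.54, 3.84 and 3.92 FPKM on day 7. Polysomal RNA gave 7.89 and 6.39 FPKM against 5.18 and 4.84 FPKM on day 5, and 5.08, 3.52 and 4.18 FPKM against 2.97, 3.89 and 3.45 FPKM on day 7. The genotypes overlapped in 3 of the 4 classes and separated only in day 5 polysomal RNA. There the log2 change was −0.50 (adjusted p = 0.401; limma), just outside the threshold, and it fell inside it under 9 of 15 alternatives, among them without control replicate 2 (−0.65). In total RNA the intervals ran from −1.09 to 1.08 on day 5 and from −0.11 to 0.50 on day 7.

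Slco1c1, an organic anion carrier that brings thyroid hormone across the barrier, was the only gene of the set, apart from Slc7a5 with its values of 0, to pass after adjustment between the genotypes (ENSMUSG00000030235.15, chromosome 6, 141524386 to 141570177). Control total RNA held 21.6 and 21.5 FPKM on day 5 and 19.4, 20.7 and 21.6 FPKM on day 7, and SMA total RNA held 13.2 and 10.1 FPKM on day 5 and 11.8, 12.02 and 11.8 FPKM on day 7. Control polysomal RNA held 29.6 and 27.8 FPKM on day 5 and 24.8, 27.2 and 25.2 FPKM on day 7, and SMA polysomal RNA held 18.3 and 12.3 FPKM on day 5 and 13.3, 14.9 and 13.1 FPKM on day 7. The highest SMA library stayed below the lowest control library of its class everywhere, and the control libraries of a class lay close together. On day 7 the log2 change was −0.79 in total RNA (SE 0.0522, adjusted p = 0.0212) and −0.90 in polysomal RNA (SE 0.0689, adjusted p = 0.0483; limma), and both passed after Benjamini-Hochberg adjustment. SMA brains held 0.58 and 0.537 of the control level there. On day 5 the changes were −0.89 in total and −0.93 in polysomal RNA, both called, with adjusted p-values of 0.551 and 0.386 (limma). Each day 5 call was lost without control replicate 1 or 2, at log2 changes of −0.89 and −0.90 in total and −0.89 and −0.98 in polysomal RNA.

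Slc38a5, a carrier of glutamine and other neutral amino acids, had the largest fold difference of the genes with a fold given (ENSMUSG00000031170.12, chromosome X, 8271133 to 8280179). Day 5 total RNA gave 13.5 and 11.5 FPKM in controls against 5.29 and 1.89 FPKM in SMA mice, and day 7 total RNA gave 6.79, 9.33 and 8.79 FPKM against 1.79, 2.52 and 3.5 FPKM. Day 5 polysomal RNA gave 19.98 and 16.3 FPKM against 3.95 and 3.72 FPKM, and day 7 polysomal RNA gave 10.2, 11.1 and 14.6 FPKM against 2.46, 3.15 and 3.0 FPKM. No SMA library reached any control library of its class. The log2 change in polysomal RNA was −2.21 on day 5 (SE 0.153, adjusted p = 0.059) and −2.02 on day 7 (SE 0.174, adjusted p = 0.0593; limma), which left 0.216 and 0.247 of the control level. In total RNA it was −1.94 on day 5 (SE 0.578, adjusted p = 0.551) and −1.67 on day 7 (SE 0.273, adjusted p = 0.216; limma). The 2 day 5 SMA total libraries differed from each other, and that call was lost without control replicate 1 (−1.82) or control replicate 2 (−2.06). That day 5 call was also lost with no filter on low values. Because the gene is X-linked and the sexes were unbalanced, sex was added to the day 7 fits after seeing the data, and the changes were then −1.58 in total and −2.07 in polysomal RNA. Without the female library of day 5, SMA replicate 1, they were −2.66 in total and −2.25 in polysomal RNA, and without SMA replicate 2 the total RNA change was −1.22, still called.

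The efflux pumps were weakly and unequally changed. Abcb1a, which encodes the P-glycoprotein of mouse brain capillaries, was the least abundant gene of the set (ENSMUSG00000040584.8, chromosome 5, 8660077 to 8748575). Its paralog Abcb1b is listed as a gene of its own, at 1.39 FPKM on average. Whether reads were divided between the paralogs was not tested. Abcb1a shares its locus in the table with 2 other genes, so its values are uncertain. Total RNA held 1.48 and 1.67 FPKM in controls against 1.33 and 1.0 FPKM in SMA mice on day 5, and 1.26, 1.43 and 1.55 FPKM against 0.99, 0.96 and 0.85 FPKM on day 7. Polysomal RNA held 2.36 and 1.85 FPKM against 1.5 and 1.2 FPKM on day 5, and 1.62, 1.71 and 1.81 FPKM against 1.02, 1.2 and 0.94 FPKM on day 7. The genotypes separated in all 4 classes, by a small margin on day 5. The day 7 log2 changes were −0.55 in total (SE 0.0998, adjusted p = 0.261) and −0.66 in polysomal RNA (SE 0.102, adjusted p = 0.183; limma). On day 5 the change was −0.60 in polysomal RNA (adjusted p = 0.4), and −0.42 in total RNA (adjusted p = 0.551; limma), where it was not called. The polysomal call was lost under 7 of 15 alternatives, with −0.44 without control replicate 1 and −0.75 and −0.45 without SMA replicate 1 and 2, while total RNA reached −0.60 without SMA replicate 1.

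Abcg2, the pump also known as breast cancer resistance protein (ENSMUSG00000029802.11, chromosome 6, 58584523 to 58692869), was called only in day 7 polysomal RNA. Control mice gave 11.6, 13.8 and 15.7 FPKM there and SMA mice 9.02, 9.96 and 11.1 FPKM, a log2 change of −0.44 (SE 0.138, adjusted p = 0.39; limma). The groups were separated by little, and the call was lost without control replicate 2 or 3 or without SMA replicate 1 or 2, at log2 changes from −0.44 to −0.34. Day 7 total RNA gave 10.3, 8.76 and 8.26 FPKM in controls against 8.63, 8.47 and 8.49 FPKM in SMA mice, which overlapped (95% interval of the log2 change −0.32 to 0.15). On day 5 total RNA gave 8.75 and 15.2 FPKM in controls against 12.3 and 12.3 FPKM in SMA mice. The day 5 polysomal values were 12.1 and 14.2 FPKM against 14.99 and 11.6 FPKM, and neither day 5 comparison separated the genotypes.

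The glucose carrier and the lipid carrier of the set were not lower in SMA brains in any class. Slc2a1, the GLUT1 glucose carrier (ENSMUSG00000028645.8, chromosome 4, 119108711 to 119138801, a locus the table gives to 4 genes), gave 9.94 and 9.59 FPKM in controls against 10.8 and 12.6 FPKM in SMA total RNA on day 5, and 10.2, 11.4 and 11.4 FPKM against 11.1, 11.8 and 12.4 FPKM on day 7. Its polysomal values were 13.3 and 9.98 FPKM against 12.4 and 13.3 FPKM on day 5 and 14, 12.8 and 13.3 FPKM against 13.8, 15.4 and 14.4 FPKM on day 7. The log2 changes lay between 0.10 and 0.25 and none was called, though day 5 total RNA reached 0.36 without SMA replicate 1. The day 7 intervals were −0.08 to 0.29 in total and −0.05 to 0.28 in polysomal RNA, so a fall of the size seen for Cldn5 lies outside them. Mfsd2a, which carries docosahexaenoic acid as a lysolipid and restrains vesicle transport in brain endothelium (ENSMUSG00000028655.9, chromosome 4, 122946850 to 122961188), was higher in SMA day 7 polysomal RNA. Control mice had 14.6, 14.2 and 13.7 FPKM there and SMA mice 18.7, 16.9 and 16.4 FPKM, a log2 change of 0.29 (SE 0.0661, adjusted p = 0.283; limma). Day 7 total RNA gave 12.6, 13.6 and 12.8 FPKM against 15.3, 14.1 and 12.96 FPKM and overlapped. Day 5 values were 10.4 and 10.3 FPKM against 11.8 and 11.8 FPKM in total and 13.2 and 10.7 FPKM against 14.4 and 14.1 FPKM in polysomal RNA. SMA mice were higher in both day 5 classes, without a call (adjusted p = 0.551 and adjusted p = 0.462), and the polysomal change reached 0.41 without control replicate 1.

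The day 5 changes of all genes also rose with transcript length, with Spearman's rho of 0.393 in total and 0.31 in polysomal RNA across 15162 genes, which are not independent replicates, against −0.034 and −0.0647 on day 7. With a length correction added after seeing the data, the day 5 changes of Mfsd2a were 0.29 in total and 0.37 in polysomal RNA, both then called, and those of Cldn5 were −1.16 and −1.46, still called. In day 5 polysomal RNA it also brought Ocln (−0.51) and Slc7a1 (−0.32) inside the threshold, both lower.

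Slc7a1, a carrier of cationic amino acids (ENSMUSG00000041313.12, chromosome 5, 148327410 to 148399904), was called in no genotype comparison. Day 7 total RNA gave 14.99, 17.2 and 18.2 FPKM in controls against 14.98, 19.1 and 17.1 FPKM in SMA mice, and day 7 polysomal RNA gave 21.1, 19.1 and 17.4 FPKM against 17.2, 22.5 and 18.8 FPKM. The day 7 intervals of the log2 change were −0.28 to 0.32 and −0.30 to 0.33. On day 5 the SMA total libraries lay on either side of the controls, at 21.6 and 12.9 FPKM against 16.2 and 16.9 FPKM. The day 5 polysomal values were 17.6 and 16.6 FPKM in controls and 15.1 and 15.2 FPKM in SMA mice, lower in both without a call (log2 change −0.17, 95% interval −0.41 to 0.07), and the length correction gave a called −0.32. In day 5 total RNA, leaving out SMA replicate 1 gave a called decrease (−0.36) and leaving out SMA replicate 2 a called increase (0.38).

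Slc7a5, the LAT1 carrier of large neutral amino acids (ENSMUSG00000040010.10), overlapped between genotypes wherever it was quantified in both. Total RNA gave 31.7 and 33.8 FPKM in controls against 36.4 and 29.5 FPKM in SMA mice on day 5, and 31.7, 31.0 and 37.98 FPKM against 34.2, 37.1 and 40.2 FPKM on day 7. Day 7 polysomal RNA gave 36.5, 31.97 and 37.5 FPKM against 36.8, 44.8 and 40.3 FPKM (log2 change 0.20, adjusted p = 0.526; limma). It was called as higher on day 7 without SMA replicate 1 in polysomal RNA (0.27) and without control replicate 3 in total RNA (0.24, against 0.15 with all libraries). In day 5 polysomal RNA the SMA mice had 31.6 and 35.1 FPKM, while both control libraries are listed at 0. The deposited row of Slc7a5 carries a merged locus on chromosome 8, 119910360 to 124345724, that 191 genes share, although Gencode M21 places the gene itself at 121881150 to 121907694. None of these 191 genes is above 0 in either early-symptomatic control polysomal library, and all 66 of them that were tested are listed at 0 in both. No other library had more than 2 of the 66 at 0. The value of Slc7a5 in these 2 libraries is not read as a measurement of the gene, and no fold change is given where they enter.

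**Figure D2:**
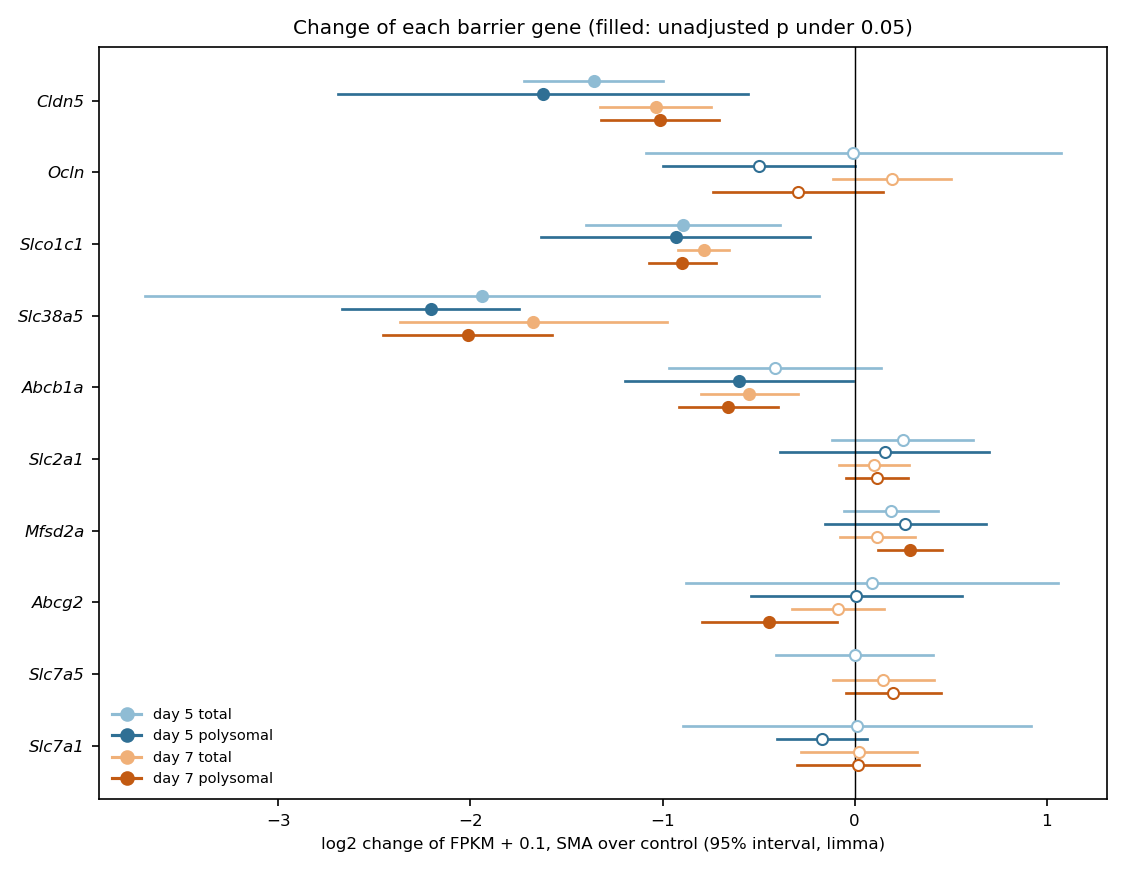
Change of log2(FPKM + 0.1), SMA over control (horizontal axis), of each barrier gene in the 4 classes of stage and fraction, as points with 95% intervals from limma, filled where the unadjusted p is under 0.05. Cldn5, Slco1c1 and Slc38a5 lie left of 0 in all 4 classes, Slc2a1 and Mfsd2a lie right of it, and no point is drawn for Slc7a5 in day 5 polysomal RNA.

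Counted together, 3 of the 10 genes were lower in SMA day 5 total RNA (Cldn5, Slco1c1 and Slc38a5), where 3.89% of all tested genes were lower, and none was higher, against 4.36%. In day 5 polysomal RNA 4 were lower, the same 3 and Abcb1a, against 6.82% of all genes, and the only call in the other direction was that of Slc7a5 with its values of 0, against 5.65%. In day 7 total RNA the same 4 genes were lower, against 4.7% of all genes, and none was higher, against 4.84%. In day 7 polysomal RNA 5 were lower, those 4 and Abcg2, against 5.38%, and Mfsd2a was higher, against 5.35%. The median log2 change of the members was −0.0022 in day 5 total RNA and, without Slc7a5, −0.50 in day 5 polysomal RNA, beside 0.01 and −0.01 over all tested genes. It was −0.03 in day 7 total and −0.37 in day 7 polysomal RNA, where the median over all tested genes was 0. After adjustment, 0.164% of all genes passed in day 5 total RNA and 0 members did. In day 5 polysomal RNA 0.649% passed, and Slc7a5 with its values of 0 was the only member among them. On day 7 0.111% passed in total and 0.0918% in polysomal RNA, and Slco1c1 was the only member in either.

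Between the fractions, the change in translation efficiency (the genotype difference of polysomal minus that of total RNA, tested as an interaction in limma) was called for 1 member on day 7. Ocln had a log2 difference of −0.49 (SE 0.213, adjusted p = 1), against 2.07% of all genes called in either direction. That call was lost without control replicate 1 (−0.27) or 3 (−0.49), or without SMA replicate 1 (−0.43), 2 (−0.57) or 3 (−0.47), with 1 model over all libraries, and in the fit blocked on replicate number, where Mfsd2a was called instead (0.17). Abcg2, at −0.36 and not called on day 7, was called without control replicate 1 (−0.56). On day 5 the only called member was Slc7a5 with its values of 0, against 2.32% of all genes, while without SMA replicate 2 Slc38a5 (−0.95, from −0.27) and Slc7a1 (−0.55, from −0.18) were called too. For the genes with the largest decreases the day 7 intervals of this difference were −0.37 to 0.42 for Cldn5, −0.30 to 0.08 for Slco1c1 and −1.10 to 0.42 for Slc38a5, so the decreases seen in total RNA were not resolved from those in polysomal RNA.

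In control brains several members were held more in the polysomal than in the total libraries. On day 7 the log2 difference was 0.58 for Abcg2 (adjusted p = 0.0787), 0.52 for Slc38a5 (adjusted p = 0.168), 0.32 for Slco1c1 (adjusted p = 0.0437), 0.28 for Slc2a1 (adjusted p = 0.0772) and 0.26 for Abcb1a (adjusted p = 0.171; limma). These 5 were all higher in polysomal RNA, with 25.3% of all genes called in either direction. On day 5 Ocln (0.68, adjusted p = 0.175), Slc38a5 (0.53, adjusted p = 0.174) and Slco1c1 (0.41, adjusted p = 0.107) were called beside Slc7a5, against 25.9% of all genes. Cldn5 was not called at either stage, at log2 differences of 0.78 on day 5 and 0.34 on day 7, but was called at both in the fit blocked on replicate number, which ended the day 5 call of Ocln. Cldn5 was also called at both stages with genes above 0 FPKM in every library and with the transcript length correction. It was called on day 5 with 1 model over all libraries and on day 7 with a mean of at least 5 FPKM. Such calls are common among all genes, and most of these were not steady. The day 7 call of Abcb1a was lost without total replicate 1 or 2 or polysomal replicate 2 or 3 (0.19 to 0.27), and that of Slc38a5 without total replicate 1 or 3 or polysomal replicate 2 or 3 (0.37 to 0.57). On day 5 the call of Ocln was lost without any 1 of the 4 libraries (0.51 to 0.84), that of Slc38a5 without either total library or polysomal replicate 1 (0.39 to 0.65) and that of Slco1c1 without either total library (0.41 each). Without polysomal replicate 2 of day 5, Cldn5 (1.12), Abcb1a (0.56), Slc2a1 (0.44) and Mfsd2a (0.35) were called as well, and on day 7 so were Cldn5 without total replicate 3 (0.44) and Ocln without polysomal replicate 2 (0.48). FPKM is relative to each library, so a difference between fractions is a share of the RNA in it and not an amount.

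Across stages, the control level of Cldn5 was lower on day 7 than on day 5, by −0.68 on the log2 scale in total RNA (adjusted p = 0.0506) and by −1.12 in polysomal RNA (adjusted p = 0.0434; limma). Slc38a5 was also lower on day 7, with log2 differences of −0.59 (adjusted p = 0.083) and −0.61 (adjusted p = 0.0936), and Ocln was lower in polysomal RNA (−0.74, adjusted p = 0.0709). Mfsd2a was higher in total RNA (0.33, adjusted p = 0.0322; limma). These calls stand against 40.3% of all genes in total and 42% in polysomal RNA, so movement between the stages was the common case. The stages may also differ by library batch, and the day 5 controls were all male while the day 7 controls were of both sexes. Age was therefore not told apart from these in the stage differences. The total RNA call of Cldn5 was lost without control replicate 1 of day 5 (−0.54), and that of Ocln without polysomal replicate 1 of day 5 (−0.59) or 3 of day 7 (−0.73). Those of Slc38a5 were lost in total RNA without either day 5 library or replicate 3 of day 7 (−0.71 to −0.48), and in polysomal RNA without either day 5 library or replicate 1 or 2 of day 7 (−0.75 to −0.46). Calls were gained in total RNA by Abcg2 without replicate 1 of day 5 (−0.74) and Slc2a1 without replicate 1 of day 7 (0.22), and in polysomal RNA by Mfsd2a (0.40) and Slc2a1 (0.42) without replicate 1 and by Abcb1a without replicate 2 of day 5 (−0.44). The genotype difference itself was not called as different between day 5 and day 7 for any member in total RNA, against 10.1% of all genes, and in polysomal RNA for Slc7a5 only, whose values of 0 enter it, against 13.7%. For Cldn5 the day 7 minus day 5 difference of the genotype effect was 0.32 in total (95% interval −0.09 to 0.74) and 0.61 in polysomal RNA (−0.21 to 1.43). It came inside the threshold in total RNA without control replicate 2 of day 5 (0.46) or control replicate 3 of day 7 (0.42), and in polysomal RNA without control replicate 2 of day 5 (0.95) or SMA replicate 1 of day 5 (0.91). The polysomal difference of Cldn5 was also called in the fit blocked on replicate number and with 1 model over all libraries. Without SMA replicate 1 of day 5, Slco1c1 was also called in total (0.30, from 0.11) and polysomal RNA (0.32, from 0.03), and Ocln in total RNA (0.60, from 0.20). Abcg2 was called in total RNA without control replicate 2 of day 5 (−0.57, from −0.18), and in polysomal RNA without SMA replicate 2 of day 5 (−0.63, from −0.45) or control replicate 1 of day 7 (−0.57).

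Of the 5 members that were lower in at least 1 comparison, Cldn5, Slco1c1, Slc38a5 and Abcb1a also moved together over the libraries. After the mean of each class of stage and fraction was removed, Pearson's r over the 20 libraries was 0.958 between Cldn5 and Slco1c1, 0.959 between Slco1c1 and Slc38a5, 0.933 between Cldn5 and Slc38a5 and 0.955 between Abcb1a and Slco1c1. Abcg2 was less close to them, with r of 0.205 with Cldn5 and 0.39 with Abcb1a. Mfsd2a ran the other way, with r of −0.704 with Cldn5 and −0.816 with Slc38a5, and Slc7a1 stayed near 0 with Cldn5 (r = 0.162). These values are descriptions, since the points share the genotype difference and the processing of each library. By the same measure the gene most like Slco1c1 was Cd93 (r = 0.983), followed by Fli1 and Ccl21a, and Cd93 was also the gene most like Slc38a5 (r = 0.963), followed by Tie1 and Itm2a. For Cldn5 the most alike were Vwa1 (r = 0.984), Fabp7 and Apcdd1, and for Abcb1a they were Slc16a1 (r = 0.973), Cd93 and Swap70. For Mfsd2a they were Mertk (r = 0.874), Prodh and Slc27a1, and for Slc2a1 Aplp2 (r = 0.868), Wwp2 and Pdzrn4. The closest genes of Ocln (Dmtf1, r = 0.86), Abcg2 (B230354K17Rik, r = 0.839) and Slc7a1 (Nsun6, r = 0.813) were less close. Those of Slc7a5 were Gm20388, Map1lc3b and Abcb10 (r = 0.999 each), which share its merged locus and its values of 0.

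Other genes of the barrier were read from fixed lists, whose counts stand against the shares of all tested genes given above, between 3.89% and 6.82% in each direction. Of 23 further genes listed for barrier transport and tested, 6 were lower and 1 was higher in SMA day 7 total RNA, and 6 were lower and 2 higher in day 7 polysomal RNA. The list medians were −0.14 and −0.07 on day 7 and 0.09 in day 5 total and 0.06 in day 5 polysomal RNA. The list also holds genes that are not carriers, Spock2 and Car4 among them. Levels in whole brain do not tell endothelium from other cells that express its genes. Slc39a8, a zinc and manganese carrier, was lower in all 4 comparisons, with day 7 log2 changes of −0.89 (adjusted p = 0.132) in total and −0.91 (adjusted p = 0.184) in polysomal RNA. Car4, a carbonic anhydrase on the capillary surface, fell from 6.76 ± 0.0757 FPKM to 3.5 ± 0.282 FPKM in day 7 total RNA (SD, n = 3 each, log2 change −0.93, adjusted p = 0.0535; limma). Slc16a1, the monocarboxylate carrier MCT1, was lower too, with a day 7 polysomal log2 change of −0.85 (adjusted p = 0.155; limma). Spock2, the most abundant of this list at 93.8 FPKM, was lower by a small amount in day 7 total RNA (log2 change −0.14). On day 5, 3 of the 23 were lower and 2 higher in total RNA, and 2 were lower and 3 higher in polysomal RNA.

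Of 20 other junction genes, 3 were lower and 1 higher in day 7 total RNA, and 2 lower and 1 higher in day 7 polysomal RNA, where 4.7% of all genes were lower and 4.84% higher in total and 5.38% and 5.35% in polysomal RNA. Cdh5, the endothelial cadherin of adherens junctions, gave the largest decrease among them on day 7 (log2 change −0.78, adjusted p = 0.384, in total and −0.92, adjusted p = 0.161, in polysomal RNA). Cldn1, another claudin, went the other way at 0.67 (adjusted p = 0.323) and 0.57 (adjusted p = 0.164; limma). Ctnnb1, which encodes beta-catenin, was the most abundant of this list at 253.3 FPKM and was called in no comparison. On day 5, 3 of the 20 were lower and 2 higher in total RNA, and 3 were lower and 1 higher in polysomal RNA. Cdh5 and Esam of this list are also counted among the general endothelial markers below. Of 20 genes of Wnt and Norrin signalling at the barrier, 3 and 2 were lower on day 5 and 6 and 5 were lower on day 7, in total and polysomal RNA respectively, and 1 was higher, in day 7 polysomal RNA. Foxf2, a transcription factor of brain pericytes, was lower by log2 changes of −0.76 in both day 5 fractions and by −0.79 and −0.72 on day 7, and Wnt7a, the most abundant of the list at 41.0 FPKM, was called in no comparison. None of the genes named from these 3 lists passed after adjustment.

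General endothelial markers, which mark vessel cells of any tissue, were mostly lower in SMA brains too. Of the 21 tested, 14 were lower in day 5 total, 13 in day 5 polysomal, 12 in day 7 total and 15 in day 7 polysomal RNA, while 1, 1, 2 and 1 were higher. Over all tested genes 3.89%, 6.82%, 4.7% and 5.38% were lower and 4.36%, 5.65%, 4.84% and 5.35% were higher. The list medians were −0.63, −0.53, −0.50 and −0.47, and all 25 listed markers averaged above 0 FPKM. Tek, the angiopoietin receptor, fell from 3.28 ± 0.53 to 0.967 ± 0.0351 FPKM in day 7 total RNA (SD, n = 3 each, log2 change −1.65, adjusted p = 0.0404; limma), and Tie1 changed by −1.20 (adjusted p = 0.154). Ly6a, an antigen of brain and other endothelium, went against the list at 1.69 (adjusted p = 0.0636; limma). The most abundant marker, Egfl7, was not called in day 7 total RNA (log2 change −0.03, adjusted p = 0.968) and was lower in day 7 polysomal RNA (−0.43, adjusted p = 0.214; limma). Summed over the 21 markers, day 5 total RNA held 148.8 and 154.6 FPKM in controls against 102.2 and 97.6 FPKM in SMA mice, and day 5 polysomal RNA 155.8 and 147.5 FPKM against 109.4 and 103.5 FPKM. Day 7 total RNA held 118.6, 130.8 and 143.7 FPKM against 113.2, 121.1 and 112.99 FPKM, and day 7 polysomal RNA 141.5, 138.1 and 150.5 FPKM against 125.97, 120.9 and 113.9 FPKM. The sums separated the genotypes in 3 classes and overlapped in day 7 total RNA, and the part of this list in the changes of the barrier genes was not tested.

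**Figure D3:**
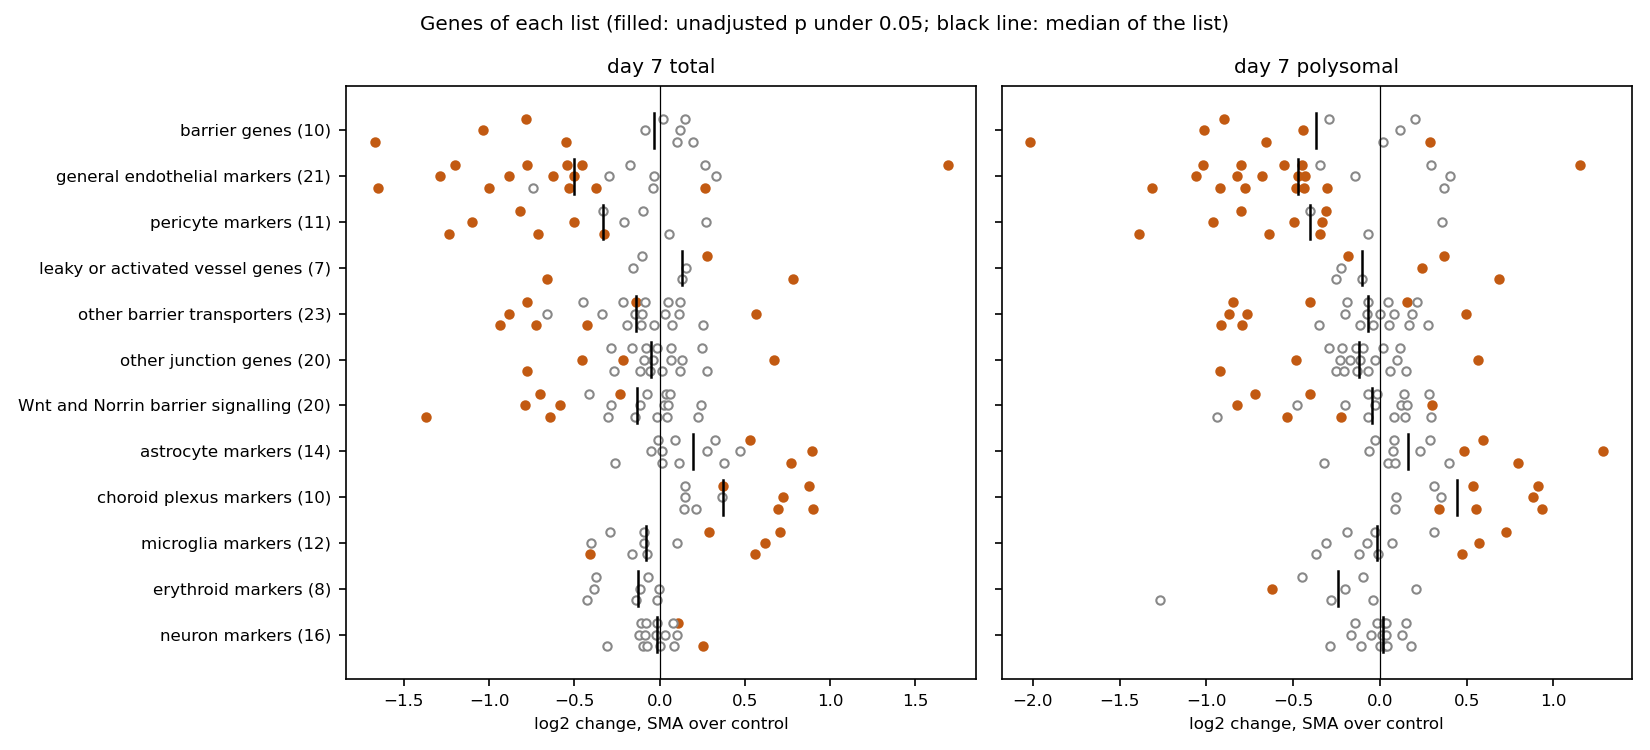
Log2 change, SMA over control, of each tested gene of 12 lists in day 7 total (left) and polysomal RNA (right), 1 circle per gene, filled where the unadjusted p is under 0.05, with the list median as a black line and the number of genes in brackets. General endothelial and pericyte markers lie mostly left of 0 with medians between −0.50 and −0.33, and all 10 choroid plexus markers lie right of it.

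Pericytes, which wrap the capillaries, showed the same direction. Of 11 pericyte markers tested, 5 and 3 were lower on day 5 and 6 and 8 on day 7, in total and polysomal RNA respectively, and 1 was higher, in day 5 total RNA. The shares of all tested genes are those given with the endothelial markers. Rgs5, the most abundant of them at 26.5 FPKM, fell in day 7 total RNA from 32.8 ± 1.07 to 13.96 ± 1.59 FPKM (SD, n = 3 each, log2 change −1.23, adjusted p = 0.0258), and Higd1b changed by −1.10 (adjusted p = 0.0189; limma). The summed list held 89.7 and 91.8 FPKM in day 5 control and 61.4 and 61.3 FPKM in day 5 SMA total RNA, and 115.6 and 107.3 FPKM against 74.7 and 68.99 FPKM in polysomal RNA. It held 87.3, 84.5 and 96.4 FPKM in controls against 53.9, 62.2 and 58.2 FPKM in SMA mice in day 7 total RNA. In day 7 polysomal RNA it held 107.4, 105.4 and 112.8 FPKM against 63.4, 74.1 and 63.1 FPKM. Its part in the changes of the barrier genes was not tested.

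Lists for the other cells a brain lysate holds were counted the same way. Their counts stand against the same shares, between 3.89% and 6.82% of all tested genes in each direction. Counts of 1 or 2 genes in a list are not read as a change of that cell type. Astrocyte markers (14 tested, Aldoc the most abundant at 169 FPKM) had 4, 1, 3 and 4 higher in day 5 total, day 5 polysomal, day 7 total and day 7 polysomal RNA and none lower. Summed, they held 494.5 and 574 FPKM in controls and 656.6 and 683.2 FPKM in SMA mice in day 5 total RNA and 620.9, 690.6 and 624.5 FPKM against 912, 790.7 and 718.95 FPKM in day 7 total RNA. In polysomal RNA the sums were 737.5 and 684.7 FPKM against 726.8 and 841.2 FPKM on day 5 and 830.5, 797.9 and 729.3 FPKM against 1097, 1004 and 885.8 FPKM on day 7, so only day 5 polysomal RNA overlapped. Choroid plexus markers (10 tested, Ttr the most abundant at 710.1 FPKM) had 5 higher in day 7 total, 6 in day 7 polysomal and 1 in day 5 polysomal RNA and none lower in any class. Their sum was 421, 421.7 and 391.5 FPKM in controls against 838.4, 747.7 and 657.1 FPKM in SMA day 7 total RNA, and 598.1, 540.9 and 486.1 FPKM against 1139, 1026 and 855.7 FPKM in day 7 polysomal RNA. On day 5 the choroid plexus sums overlapped, at 794.4 and 747.5 FPKM against 427.4 and 820.6 FPKM in total and 1030 and 1005 FPKM against 960.8 and 1086 FPKM in polysomal RNA. Ttr made up most of these sums, since Folr1, the next most abundant marker, averaged 14.1 FPKM. The list median of the log2 change was −0.21 in total and −0.01 in polysomal RNA on day 5, and 0.37 and 0.44 on day 7. What either list contributed to the levels of carriers that these cells also use was not tested. Of 16 neuron markers, none was lower in any comparison, and 1, 2, 2 and 0 were higher in day 5 total, day 5 polysomal, day 7 total and day 7 polysomal RNA. Of the 2 in day 5 polysomal RNA, 1 was Tubb3, a neuronal tubulin that like Slc7a5 is listed at 0 in both control libraries there, and it is not read as a change. Microglia markers (12 tested) had 2 and 3 lower on day 5 and 1 lower and 4 higher in day 7 total and 3 higher in day 7 polysomal RNA. Of 8 erythroid markers, a reading of blood left in the tissue with Hba-a1 the most abundant at 1330 FPKM, 1 was lower in day 5 total and 1 in day 7 polysomal RNA and none was higher. Of 7 genes of leaky or activated vessels, 2 were higher and 1 lower in day 7 total RNA and 3 higher and 1 lower in day 7 polysomal RNA, and Angpt2, an antagonist of Tek signalling, was higher by 0.78 (adjusted p = 0.254) and 0.68 (adjusted p = 0.334; limma). On day 5, 2 of the 7 were higher and 1 lower in total RNA and 1 was higher and 1 lower in polysomal RNA.

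Relative to the mean log2 level of the 21 general endothelial markers, a reference added after seeing the data, the barrier genes did not move as a block. The marker mean itself differed between SMA and control by −0.58, −0.53, −0.41 and −0.42 in day 5 total, day 5 polysomal, day 7 total and day 7 polysomal RNA. A gene unchanged in whole brain therefore stands above this reference in SMA brains by the size of that fall. Slc7a1 was nearly such a gene on day 7, with log2 changes of 0.02 in total and 0.02 in polysomal RNA before the reference was subtracted. On this scale Slc38a5 was still lower in SMA brains by −1.26 in day 7 total and −1.60 in day 7 polysomal RNA, Cldn5 by −0.63 and −0.59 and Slco1c1 by −0.38 and −0.48, with no overlap of the genotypes. Abcb1a differed by −0.14 and −0.24, with overlap in total RNA. Slc2a1 was 0.51 and 0.54 above the reference change, Mfsd2a 0.53 and 0.71, Slc7a5 0.56 and 0.62 and Slc7a1 0.43 and 0.43, again with no overlap. Ocln stood 0.60 and 0.12 above it and Abcg2 stood at 0.32 and −0.02. On day 5 Abcb1a stood at 0.16 in total and −0.07 in polysomal RNA, with overlap in both. Abcg2 stood at 0.67 and 0.54 on day 5, without overlap. No test was made on this scale, and these genes are also used by cells that the reference does not describe.

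**Figure D4:**
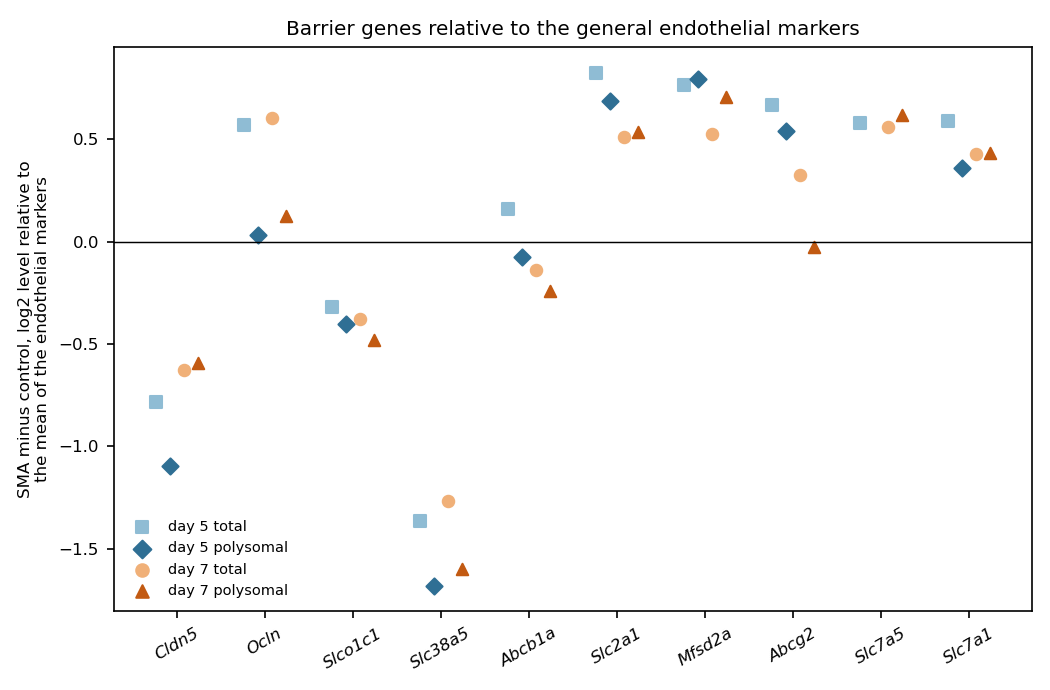
SMA minus control difference of each barrier gene in log2 level relative to the mean of 21 general endothelial markers (vertical axis), for the 4 classes of stage and fraction. Slc38a5, Cldn5 and Slco1c1 lie below 0 in every class, and Slc2a1, Mfsd2a, Slc7a5 and Slc7a1 lie above it wherever drawn. The marker mean was lower in SMA brains in every class, so a gene unchanged in whole brain also lies above 0 here.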

How the data were processed

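Levels of total and polysomal RNA were read from 20 columns of 1 table, and samples were grouped by GEO's labels. The deposited FPKM values were made by the authors from stranded total RNA libraries with reads of 100 bases, aligned with TopHat2 2.0.14 to GRCm38.p4 and quantified per gene with Cufflinks 2.2.1 guided by the Gencode M6 annotation. They are rounded to 2 decimals and hold no counts, so the depth behind a value is unknown from them. Genes of at least 1 FPKM on average (15247 of 45700) were tested with limma 3.58.1 in R 4.3.3 (lmFit and eBayes with a trend) on log2(FPKM + 0.1), each stage and fraction by itself, and interactions over 4 groups. Calls used the unadjusted p under 0.05, and Benjamini-Hochberg adjustment ran over all tested genes. The code was tested on simulated data. The 10 genes, the lists and the tests were chosen with earlier results of these data known. Named list genes were the most abundant of each list and up to 2 per genotype comparison with the largest called change and no overlap. A list gene that the rule names is not reported here. Likeness named 3 genes per member. Alternatives covered pseudocount, filters, scaling, the variance model, 1 model over all libraries, the replicate block and each library left out. Length, sex and endothelial reference were added after seeing the data.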

Additional observations from a re-analysis of the deposited data

Results flagged for a closer look

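The genotype effect on Slc7a5 in polysomal RNA differed between day 7 and day 5 by the interaction test (limma, Benjamini-Hochberg adjusted p = 4.7e-08). It rests on both day 5 control polysomal libraries, where Slc7a5 and the other genes of its merged locus are listed at 0. With genes required to be above 0 in every library, Slc7a5 was not tested.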

How the results depend on the processing

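Late Cldn5 and Slc38a5 kept their calls in total and polysomal RNA under every alternative but the adjusted p, as did Abcb1a, which was not tested with a mean of at least 5 FPKM, and late Slco1c1 kept them under every one. Of 2042 changes of single genes under an alternative, 1798 kept their direction and side of the threshold, 86 changed sign with no call in either, 92 lost a call, 65 gained one and 1 reversed. At an adjusted p under 0.05 the members called were 0 of 3 in SMA against control early total, 1 of 5 in early polysomal, 1 of 4 in late total, 1 of 6 in late polysomal, 0 of 1 for late translation efficiency, 1 of 3 and 2 of 4 for day 7 against day 5 in control total and polysomal, and 1 of 4 and 1 of 5 for polysomal against total early and late. Slc7a5 with its values of 0 is 1 of those counted in early polysomal, day 7 against day 5 polysomal and early polysomal against total RNA, which leaves 0, 1 and 0. With the transcript length correction 8 were called in early polysomal RNA. Above 0 FPKM in every library, early translation efficiency and the polysomal late minus early effect had 0 calls in place of 1. Late translation efficiency had 0 with a mean of at least 5 FPKM or 1 model over all libraries, which gave 2 for the polysomal late minus early effect and 3 for late polysomal against total.

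Leaving out each replicate in turn, the members called ranged from 1 to 6 in early total, 3 to 5 in early polysomal, 4 to 5 in late total, 5 to 6 in late polysomal, 1 to 3 and 0 to 1 for early and late translation efficiency, 0 to 2 and 1 to 3 for the late minus early effect in total and polysomal, 2 to 4 and 3 to 4 for day 7 against day 5, and 1 to 7 and 3 to 5 for polysomal against total early and late. The change of Slc7a1 in early total RNA went from 0.01 to −0.36 without SMA replicate 1 and to 0.38 without SMA replicate 2. The cause was not tested.

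With the replicate number as a block, 2 members were called for the polysomal late minus early effect, Cldn5 beside Slc7a5, and Ocln lost its late translation efficiency call while Mfsd2a gained one at a log2 difference of 0.17. It also called Cldn5 for polysomal against total RNA at both stages (0.78 and 0.34) and Ocln for day 7 against day 5 in control total RNA (−0.41), and ended the calls of Ocln for early polysomal against total RNA (0.68) and of Slc38a5 for day 7 against day 5 in total RNA. The 4 genotype comparisons kept their counts of 3, 5, 4 and 6. Libraries of the same number correlated in their deviations from the group means between −0.0902 and 0.109, not above 0.1 in every pair, although the sex read from expression agreed between total and polysomal libraries of every number. Whether the numbers pair the samples is not settled by these values, and the fit without the block is the one reported.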
